A study of Rattus norvegicus with 12 samples.

Results

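The uncoupling proteins are 3 carriers of the inner mitochondrial membrane, encoded by Ucp1, Ucp2 and Ucp3. They were picked by gene name, which gave 3 genes among the 30560 of the deposited count table. The libraries came from inner red gastrocnemius, a muscle of the calf, of 6 male wild-type Wistar Kyoto rats aged 9 weeks, kept on standard chow and otherwise untreated. Each rat gave 1 library of whole muscle, made from 50 ng of RNA, and 1 of mitochondria, made from 10 ng of RNA. An antibody pull-down on fresh tissue gave the mitochondria, which were cleaned with RNase A and proteinase K, whereas the whole muscle was snap frozen. The groups therefore differ in fraction, enzyme treatment, tissue storage, extraction kit and RNA input at once, and these cannot be told apart. All libraries were of total RNA depleted of ribosomal RNA.

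UCP1 is the heat-producing protein of brown fat: it lets protons return through the inner membrane without making ATP. UCP2 is found in many tissues and is well known from macrophages and other immune cells, and UCP3 is best known from skeletal muscle and brown fat, where fatty acids induce its gene through PPAR receptors. All 3 belong to the SLC25 family of mitochondrial carriers, are encoded in the nucleus, made in the cytosol and then imported. Their mRNA is therefore normally a cytosolic molecule, and the libraries allow its level in whole muscle to be set beside that in isolated mitochondria.

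The 250 bases before the start of each gene are shown because the 3 genes differed in whole muscle from no count at all to 10034 counts. They are RefSeq windows given in GRCr8 positions, while the counts were made on mRatBN7.2: chr19:41721422-41721671 on the minus strand for Ucp1, chr1:164251123-164251372 on the plus strand for Ucp2 and chr1:164227660-164227909 on the plus strand for Ucp3. Capitals mark the core promoter motif TATAAA and the motif AGGTCA of nuclear receptors such as the PPARs. Motifs were searched on both strands.
Ucp1: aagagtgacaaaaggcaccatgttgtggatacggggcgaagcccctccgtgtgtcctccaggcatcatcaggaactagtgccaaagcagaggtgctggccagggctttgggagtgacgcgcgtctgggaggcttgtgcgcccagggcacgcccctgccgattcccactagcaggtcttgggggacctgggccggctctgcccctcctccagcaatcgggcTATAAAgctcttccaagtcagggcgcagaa
Ucp2: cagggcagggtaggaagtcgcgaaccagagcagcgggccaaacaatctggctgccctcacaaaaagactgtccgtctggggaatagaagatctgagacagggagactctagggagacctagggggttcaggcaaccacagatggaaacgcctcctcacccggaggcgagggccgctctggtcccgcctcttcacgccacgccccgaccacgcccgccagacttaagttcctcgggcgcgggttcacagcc
Ucp3: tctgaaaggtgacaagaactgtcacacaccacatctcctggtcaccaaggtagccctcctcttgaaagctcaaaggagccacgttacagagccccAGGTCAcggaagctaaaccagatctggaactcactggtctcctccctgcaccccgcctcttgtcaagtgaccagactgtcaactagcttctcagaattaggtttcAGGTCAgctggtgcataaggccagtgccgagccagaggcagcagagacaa

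The Ucp1 window held TATAAA from 30 to 25 bases before the start, and the others had none. TATAAA stood in 12.9% of all 33469 such windows of the rat table. The Ucp3 window held AGGTCA at 155 to 150 and at 50 to 45 bases before the start, and this motif stood in 14.1% of all windows. CANNTG, the E-box of factors such as MyoD, had 2 matches for Ucp3, of which the one at 46 to 41 bases overlaps the last AGGTCA. It had 1 match for Ucp2 and none for Ucp1, and 65.5% of all windows held it. CCAAT was in none of the 3 windows and in 34.0% of all. The GC content was 62.0% for Ucp1, 62.8% for Ucp2 and 53.6% for Ucp3.

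Depth was 24309444 to 32055355 counts per muscle library against 720111 to 1785865 per mitochondria library. In CPM, which scales each library to the same total of gene counts, 1 count was worth 0.0312 to 0.0411 in muscle and 0.560 to 1.39 in mitochondria. Markers of muscle fibres were present in every muscle library, with a summed level of 150999 to 213695 CPM over 9 genes, and made up 1312 to 3399 CPM in mitochondria. Genes of the mitochondrial genome took 26.4% to 35.9% of counts in muscle. In mitochondria they took 12.9% to 28.9% in replicates 1 to 3 and 41.2% to 51.5% in replicates 4 to 6, which lowers the CPM of every nuclear gene in the latter. Levels were not divided by transcript length, so they are compared between groups and not between genes.

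Ucp3, the muscle form, was lower in the mitochondria libraries. In whole muscle its level ranged from 27.4 CPM in replicate 4 to 120.2 CPM in replicate 1, with a median of 50.6 CPM. In mitochondria it ranged from 18.5 CPM in replicate 4 to 47.2 CPM in replicate 1, with a median of 25.3 CPM. The groups overlapped, because mitochondria replicate 1 lay above muscle replicates 2, 4 and 6, but mitochondria were lower than muscle in each of the 6 animals. The means were 57.5 ± 32.4 CPM in muscle, from 10034 counts over the group, and 27.8 ± 10.3 CPM in mitochondria, from 200 counts (SD, n = 6 each). In the fit over all genes, edgeR's quasi-likelihood test after TMM scaling (which trims the genes with the most extreme ratios when it sets library sizes), the log2 fold change was -3.22 ± 0.25 (SE, edgeR adjusted p = 4.04e-13). It was -2.78 without muscle replicate 1. With total counts as library size the log2 fold change of Ucp3 was -1.12 ± 0.23 (SE, edgeR adjusted p = 5.18e-06), so its size depended on the scaling.

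Ucp2, the ubiquitous form, had a higher CPM in mitochondria and yet a negative fold change after TMM scaling. In whole muscle its level ranged from 5.68 CPM in replicate 2 to 9.33 CPM in replicate 3, with a median of 8.30 CPM. In mitochondria it ranged from 16.2 CPM in replicate 4 to 31.9 CPM in replicate 1, with a median of 24.5 CPM. By CPM the groups did not overlap, and mitochondria were higher in 6 of 6 animals. The means were 8.16 ± 1.32 CPM in muscle, from 1388 counts, and 23.6 ± 5.90 CPM in mitochondria, from 175 counts (SD, n = 6 each). The log2 fold change was -0.60 ± 0.16 with TMM scaling (SE, edgeR adjusted p = 0.000729) and 1.49 ± 0.21 with total counts as library size (SE, edgeR adjusted p = 1.16e-09). The direction for Ucp2 thus turned with the scaling.

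Ucp1, the brown fat form, had no count in any of the 6 muscle libraries, among 170841891 counts, and counts in all 6 mitochondria libraries. A count of 0 over the muscle group allows a level of up to 0.0176 CPM (3 counts of the total, counting error only). In mitochondria it had 8 to 29 counts per library and 88 in all, with a lowest level of 5.32 CPM in replicate 6, a median of 11.9 CPM and a highest level of 19.5 CPM in replicate 2. The mean was 12.1 ± 5.91 CPM (SD, n = 6). Replicates 1 to 3 had 15.8 to 19.5 CPM and replicates 4 to 6 had 5.32 to 8.14 CPM, and replicates 4 to 6 are those with the larger share of the mitochondrial genome. In CPM of nuclear counts, from which that share is removed, replicates 1 to 3 had 18.1 to 27.5 and replicates 4 to 6 had 9.40 to 15.0. The part of library makeup in this difference was not tested. Set against that floor, Ucp1 was at least 638-fold higher in mitochondria by CPM and at least 153-fold higher with TMM scaling. The fitted log2 fold change of 8.50 ± 0.55 (SE, edgeR adjusted p = 7.24e-14) depends on the prior count of the fit.

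**Figure D1:**
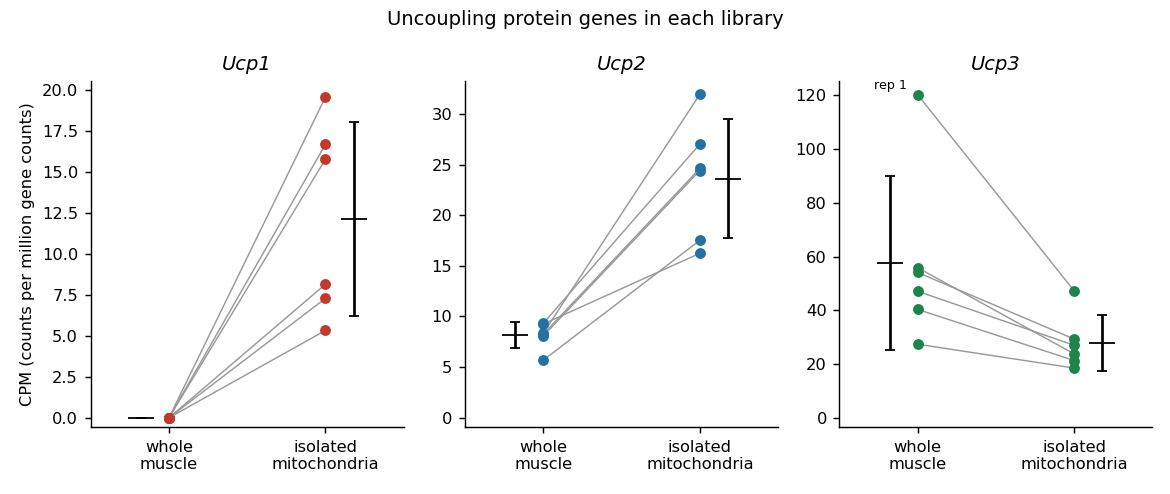
Level of each uncoupling protein gene in CPM on a linear axis, with a point per library, a grey line joining the libraries of each animal, and bars for the mean ± SD (n = 6). Ucp1 goes from 0 to 5.32 to 19.5 CPM, Ucp2 is higher in mitochondria and Ucp3 lower in every animal, and muscle replicate 1 has the highest Ucp3.

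Many other genes without a muscle count had counts in mitochondria. Of 10014 nuclear genes without a muscle count, 6474 had a count in all 6 mitochondria libraries, and 82.8% of the 10014 had a mean CPM in mitochondria at or below that of Ucp1. Among all nuclear genes, 44.0% lay at or below Ucp1, 65.8% at or below Ucp2 and 72.2% at or below Ucp3 in mitochondria. In whole muscle, 32.8%, 76.2% and 95.4% lay at or below Ucp1, Ucp2 and Ucp3. By CPM the 3 genes thus had different places among the genes of whole muscle and closer places among those of the mitochondria libraries. Such places also depend on transcript length, by which levels were not divided.

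**Figure D2:**
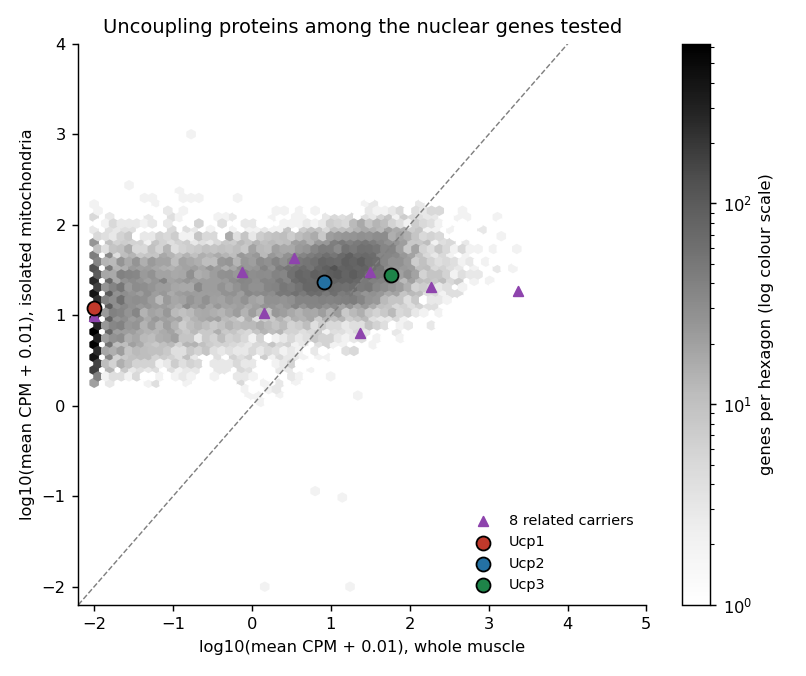
Mean level in whole muscle (x axis) and isolated mitochondria (y axis) of the nuclear genes tested, as log10(CPM + 0.01), shaded by the number of genes, with the uncoupling proteins as circles, 8 related carriers as triangles and a dashed line of equal CPM. Ucp1 sits at the left edge at no muscle count, Ucp2 above the line and Ucp3 below it.

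All 3 genes passed the filter for low counts, Ucp1 through its mitochondria libraries alone, so its difference follows from passing. With TMM scaling 1 was higher in mitochondria and 2 were lower, against 63.0% of 24679 genes called higher and 30.3% called lower in the same test. With total counts 2 were higher and 1 was lower, against 84.3% and 9.03% of genes. By CPM, Ucp1 and Ucp2 did not overlap between groups and were higher in mitochondria, as were 69.6% of the 29900 genes with a count, while 5.63% did not overlap and were lower. The median log2 fold change of all genes was 2.51 with TMM and 4.61 with total counts. The TMM median was 1.18 to 1.21 when any 1 muscle library was left out, where fewer genes passed the filter. Ucp2 and Ucp3 lay below the median of all genes under both scalings: 27.5% and 5.41% of genes had a fold change at or below theirs with TMM, and 27.4% and 5.49% with total counts.

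Exact permutation tests on log2(CPM + 1), two-sided over all groupings of the 12 libraries into 6 and 6, gave a difference of 3.58 for Ucp1 and of 1.41 for Ucp2 (exact permutation p = 0.00216 each, the smallest this test can give, and 0.00325 adjusted over the 3 genes). For Ucp1 this p was fixed by muscle counts of 0 in all 6 libraries beside counts in all 6 mitochondria libraries. The Ucp1 difference depends on the 1 added to CPM and was 6.77 with 0.1 added. For Ucp3 the difference was -0.93 (exact permutation p = 0.0195, adjusted 0.0195). Against the counts of the mitochondrial genome as library size, Ucp3 had a log2 fold change of -0.80 ± 0.51, which no longer passed (SE, edgeR adjusted p = 0.128). Under that scaling Ucp2 rose by 1.81 ± 0.56 (SE, edgeR adjusted p = 0.00157).

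**Figure D3:**
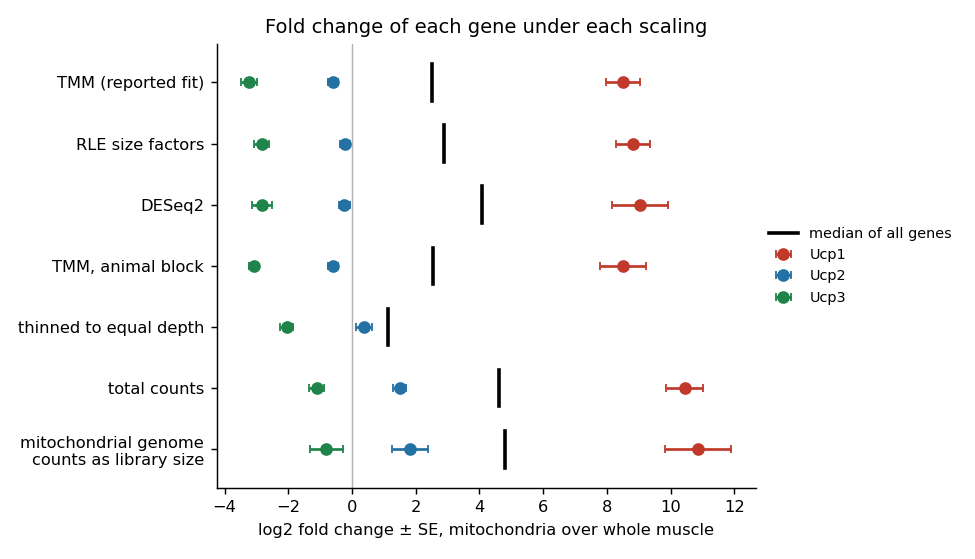
Log2 fold change of mitochondria over whole muscle for each uncoupling protein gene under 7 scalings or fits (dots with SE), with the median of all genes tested as a black bar; Ucp1 was removed by the filter after thinning. In the fits shown Ucp3 stays left of 0 and of the median, Ucp2 crosses 0 from -0.60 with TMM to 1.81 with mitochondrial genome counts, and the Ucp1 value depends on the prior count.

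Ratios between the genes within a library do not depend on any scaling between libraries. The count of Ucp2 divided by that of Ucp3 was 0.0695 in muscle replicate 1 and 0.338 in muscle replicate 4, the lowest and the highest of the group. In mitochondria it was between 0.650 in replicate 2 and 1.16 in replicate 6, so all 6 mitochondria libraries lay above all 6 muscle libraries. The log2 ratio, with 0.5 added to each count, rose by 2.47, a 5.55-fold shift (two-sided exact permutation p = 0.00216, also after adjustment over the 3 pairs; sign-flip test over animals, exact p = 0.0312, each the smallest the test can give). Ucp3 thus fell relative to Ucp2, whichever way the libraries are scaled.

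For the pairs with Ucp1 the shift depends on the 0.5 added to muscle counts of 0. In mitochondria the count of Ucp1 was 0.216 to 1.12 of that of Ucp2 and 0.250 to 0.725 of that of Ucp3, whereas both ratios were 0 in every muscle library. The groups therefore did not overlap for either pair, which restates the muscle counts of 0. Thinned to 573903 nuclear counts per library, muscle had 0 counts of Ucp1, 5 to 10 of Ucp2 and 18 to 94 of Ucp3. Mitochondria had 6 to 14, 17 to 26 and 19 to 34 at that depth. Ucp1 was thus without counts in the group that was sequenced more deeply.

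**Figure D4:**
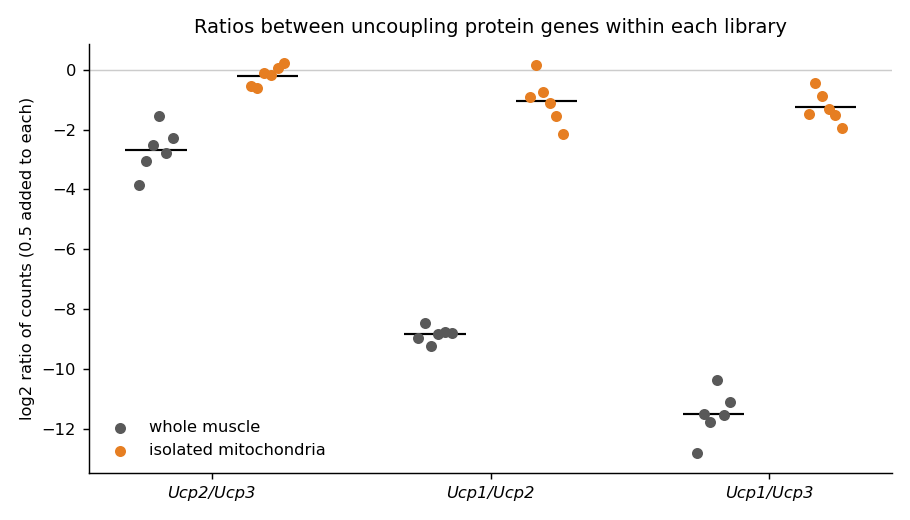
Log2 ratio of counts between pairs of uncoupling protein genes in each library (0.5 added to each count), with a line at the mean of each group of 6. For Ucp2/Ucp3 the mean goes from -2.68 in muscle to -0.20 in mitochondria without overlap, and for the pairs with Ucp1 the muscle values rest on Ucp1 counts of 0.

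Ucp3 and Ucp2 are neighbours in the rat genome: in the GRCr8 gene order Ucp3 is followed directly by Ucp2 and then by Dnajb13, a gene of motile cilia. Dnajb13 had 0.0287 ± 0.0342 CPM in muscle, from 5 counts, and 21.4 ± 4.44 CPM in mitochondria (SD, n = 6 each; log2 fold change 7.08 ± 0.36, SE, edgeR adjusted p = 8.17e-18). The other near genes with a row in the count table were C2cd3, a gene of centrioles, Ppme1, a protein phosphatase methylesterase, and Coa4, an assembly factor of complex IV, with log2 fold changes of 1.39, -0.94 and 0.82 with TMM. Their levels in mitochondria were 85.4 ± 24.4, 37.6 ± 8.52 and 29.4 ± 10.9 CPM, against 7.36 ± 1.36, 16.8 ± 1.75 and 3.70 ± 0.516 CPM in muscle. Around Ucp1 the near genes were Mgat4d, Elmod2, Tbc1d9 and Rnf150. Mgat4d, like Ucp1, had no count in muscle, and it had 15.4 ± 3.46 CPM in mitochondria. Elmod2, Tbc1d9 and Rnf150 had 2.40 ± 0.170, 7.28 ± 3.78 and 18.5 ± 3.54 CPM in muscle and 16.1 ± 4.85, 69.0 ± 22.4 and 26.3 ± 10.4 CPM in mitochondria. All 8 neighbours that are not uncoupling proteins had a higher mean CPM in mitochondria, the direction called for 84.3% of all genes with total counts. With TMM scaling Ppme1 and Rnf150 fell (log2 fold changes -0.94 and -1.63; edgeR adjusted p = 3.39e-08 and 6.05e-11) and the other 6 rose, beside 63.0% of all genes called higher. Of the 6 that rose, Dnajb13 and Mgat4d passed the filter through mitochondria alone, so their rise follows from passing.

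The 8 related carriers of the SLC25 family went both ways. With TMM scaling 4 were higher and 4 lower in mitochondria, with a median log2 fold change of -0.75, and with total counts 4 were higher and 3 lower, with a median of 1.35. Over all genes 63.0% were called higher and 30.3% lower with TMM (median 2.51), and 84.3% and 9.03% with total counts (median 4.61). The adenine nucleotide carriers of muscle, which exchange ADP for ATP and also leak protons, fell under both: Slc25a4 went from 2364 to 18.6 CPM (log2 fold change -9.09 with TMM) and Slc25a5 from 23.3 to 6.45 CPM (-4.01). Slc25a11, the oxoglutarate carrier, fell from 187 to 20.5 CPM (-5.33). Slc25a30, a close relative of the uncoupling proteins, had 31.3 CPM in muscle and 29.9 CPM in mitochondria and had a log2 fold change of -2.19 with TMM, where it passed, and of -0.10 with total counts, where it did not (edgeR adjusted p = 0.616). Slc25a14 and Slc25a27, the brain relatives often called UCP5 and UCP4, rose under both scalings, from 1.42 to 10.6 and from 0.739 to 29.9 CPM, and so did Slc25a10, the dicarboxylate carrier, from 3.39 to 42.5 CPM. With a mean of 0.739 CPM in muscle, Slc25a27 was too low to pass the filter through muscle alone. Slc25a31, the adenine nucleotide carrier of testis, had no muscle count and 9.73 CPM in mitochondria. It passed the filter through mitochondria alone, so its rise follows from passing. Carriers with high muscle levels were thus among those that fell. The ones near 0 in muscle, Slc25a27 and Slc25a31, were among those that rose, but their rise is not independent of the filter. The levels of all 8 in mitochondria lay between 6.45 and 42.5 CPM.

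Genes that act with the uncoupling proteins were described by the same counts. Of 27 regulators 6 were higher and 20 lower with TMM (median -1.48), and 14 higher and 6 lower with total counts (median 0.61). Over all genes 63.0% were called higher and 30.3% lower with TMM, and 84.3% and 9.03% with total counts. Prkaa2, a catalytic subunit of the energy sensor AMPK, went from 177 to 28.5 CPM, Srebf1, a factor of lipid synthesis, from 76.6 to 42.0 CPM and Rxra, the partner of the PPARs on DNA, from 62.7 to 38.9 CPM, and each fell under both scalings. Adrb3, the receptor through which noradrenaline drives brown fat, changed most, from 0.0584 to 16.7 CPM (log2 fold change 5.89 with TMM, edgeR adjusted p = 2.40e-14). With 10 muscle counts in all, it passed the filter through mitochondria alone, so its rise follows from passing. Another of the 6 called higher with TMM had 26 muscle counts in all, also too few to pass through muscle.

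Of 20 genes of fatty acid use and PPAR response 2 were higher and 17 lower with TMM (median -3.83), and 5 and 13 with total counts (median -1.73). Beside this list and the next, 63.0% of all genes were called higher and 30.3% lower with TMM, and 84.3% and 9.03% with total counts. Acadm, Hadhb and Hadha, enzymes of beta-oxidation, went from 537 to 27.9, from 316 to 17.2 and from 306 to 36.7 CPM. Pdk4, the kinase that turns off pyruvate oxidation in fasting, went from 223 to 26.5 CPM, and Cpt1b, which lets fatty acids into mitochondria, from 202 to 46.3 CPM. Acot1, an acyl-CoA thioesterase, had 2 muscle counts and 89 mitochondria counts, which makes a ratio by CPM of 968 (95% exact interval 260 to 8115, counting error only). It passed the filter through mitochondria alone, so its rise follows from passing. Of 11 genes of heat production without UCP1, 2 were higher and 9 lower with TMM (median -2.64), and 4 and 6 with total counts (median -0.58). Ryr1 and Atp2a2, the calcium release channel and a calcium pump of the sarcoplasmic reticulum, went from 5120 to 304 and from 2197 to 61.7 CPM, and Ckmt2, the mitochondrial creatine kinase, from 1412 to 33.5 CPM. These lists of genes active in muscle fell in the main, as Ucp3 did, and their medians lay below that of all genes.

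**Figure D5:**
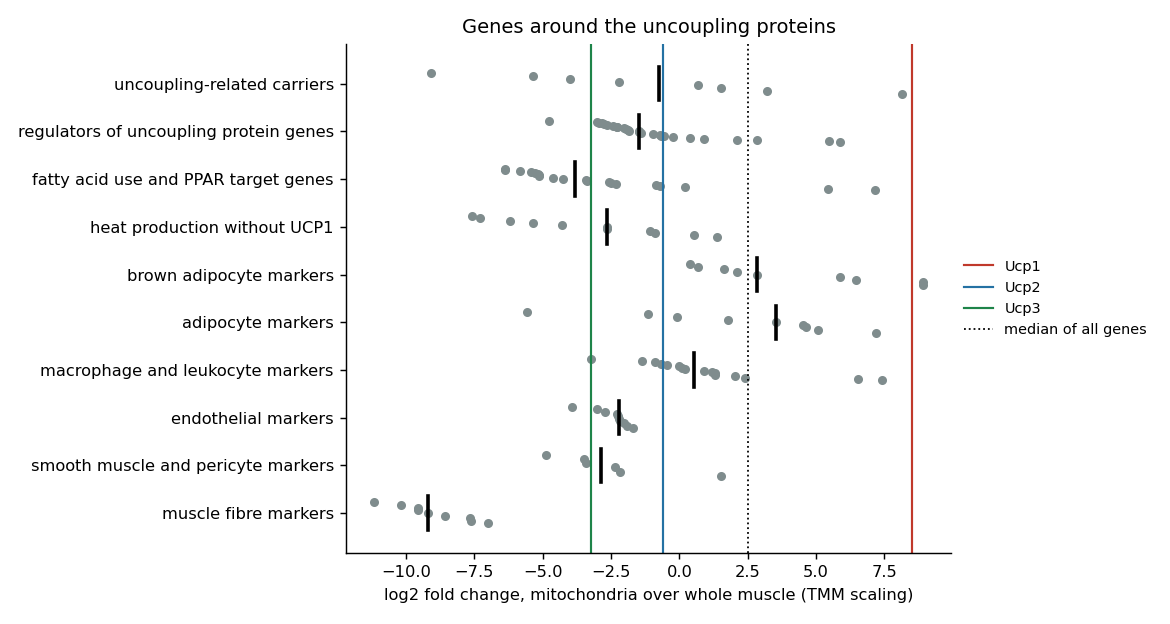
Log2 fold change with TMM scaling of each gene (dots) in 10 lists around the uncoupling proteins, with a black bar at each list's median, coloured lines for Ucp1, Ucp2 and Ucp3 and a dotted line at the median of all genes, 2.51. Muscle fibre markers lie left of Ucp3, and the medians of brown adipocyte and adipocyte markers, 2.82 and 3.52, lie right of the median of all genes.

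Cell types that carry Ucp1 and Ucp2 were followed by their markers. All 9 brown adipocyte markers with a row in the table were higher in mitochondria under both scalings, where 63.0% of all genes were called higher with TMM and 84.3% with total counts. Their median log2 fold change was 2.82 with TMM, also with genes without a muscle count set to their bound, near the 2.51 of all genes, and 4.93 with total counts, near 4.61. This nearness did not hold in all settings. When any 1 muscle library was left out, the TMM median of all genes was 1.18 to 1.21, against 2.84 to 3.18 for the markers. In DESeq2 the median of all genes was 4.08, against 3.19 for the markers. The summed level of the 9 markers was 16.1 to 20.2 CPM in muscle and 206 to 340 CPM in mitochondria. Ebf2, Prdm16 and Cidea went from 7.47 to 42.0, from 4.46 to 84.2 and from 3.76 to 26.4 CPM. Lhx8, a marker of brown fat, had no muscle count and 117 counts in mitochondria, at least 848-fold higher by CPM. Elovl3, a fatty acid elongase of brown fat picked out after its values were seen, also had none in muscle and was at least 841-fold higher. Lhx8 and Elovl3 passed the filter through mitochondria alone, as Ucp1 did, so their rise follows from passing. Zic1, a factor of brown fat picked out in the same way, and Adrb3 had 6 and 10 muscle counts in all. These are too few to pass through muscle, so the same holds for Zic1 and Adrb3. Of the 9 adipocyte markers 6 were higher and 2 lower with TMM (median 3.52), and 8 higher and 1 lower with total counts (median 5.63), again beside 63.0% and 84.3% of all genes called higher. Fabp4, the fatty acid binding protein of fat cells and endothelium, fell from 109 to 9.81 CPM. Lipe, the hormone-sensitive lipase, had 23.1 CPM in muscle and 45.7 CPM in mitochondria, with a log2 fold change of -1.16 with TMM and of 0.95 with total counts. Cfd, the adipocyte protease adipsin, had 4.11 and 17.1 CPM, and its change passed with total counts (2.01) but not with TMM (-0.09, edgeR adjusted p = 0.609). Lep, the fat hormone leptin, changed most, from 0.0300 to 23.7 CPM. With 5 muscle counts in all, Lep passed the filter through mitochondria alone, so its rise follows from passing. Most markers of brown and other fat cells had a higher CPM in mitochondria, as did Ucp1 and most genes of the table, and their part in the Ucp1 level was not tested.

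Of 16 macrophage and leukocyte markers 8 were higher and 4 lower with TMM (median 0.55), and 15 higher and 1 lower with total counts (median 2.64), beside 63.0% and 84.3% of all genes called higher. Their summed level was 81.9 to 145 CPM in muscle and 447 to 781 CPM in mitochondria. Lyz2, a lysozyme, fell from 25.8 to 11.3 CPM. Csf1r and Cd163, receptors of macrophages, had 15.9 and 78.8 CPM and 13.5 and 58.6 CPM, with log2 fold changes of 0.20 and -0.02 with TMM that did not pass. The summed CPM of immune markers was higher in mitochondria, as were Ucp2 and most genes, and their part in the Ucp2 level was not tested. In whole muscle the number of cells of a type and the RNA per cell cannot be told apart. Marker levels in isolated mitochondria are not a measure of cells.

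Endothelial markers, 10 of 10, fell with TMM (median -2.22), and with total counts 1 was higher and 3 were lower. For this list and the next ones, 30.3% of all genes were called lower and 63.0% higher with TMM. With total counts these shares were 9.03% and 84.3%. Cdh5, Vwf and Kdr had 137, 102 and 89.9 CPM in muscle and 40.2, 140 and 84.7 CPM in mitochondria. Of 6 markers of smooth muscle and pericytes 5 fell and 1 rose with TMM, and Myh11, Rgs5 and Pdgfrb had 143, 111 and 60.5 CPM in muscle and 124, 16.6 and 57.6 CPM in mitochondria. All 9 muscle fibre markers fell under both scalings (median -9.17 with TMM), among them Ttn, Myh4 and Acta1, with log2 fold changes of -7.61, -9.57 and -11.17. All 9 lay below the -3.22 of Ucp3; the difference was not tested.

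Across the 6 animals, the Ucp3 level of whole muscle was set beside 5 genes linked to fatty acid supply and fibre type. Replicate 1, with the highest Ucp3, also had the highest Angptl4, a fasting-induced inhibitor of lipoprotein lipase (12.2 CPM, against 0.782 to 4.36 in the others), the highest Pdk4 (323 CPM, against 122 in replicate 4) and the highest Myh4. Pearson's r was 0.89 for Angptl4 (Spearman's rho 0.83), 0.76 for Pdk4 (rho 0.66), 0.66 for Myh4 (rho 0.66), -0.19 for Cpt1b (rho -0.20) and -0.06 for Ucp2 (rho -0.09), over 6 libraries each. No relation passed after adjustment over the 5. For Angptl4 the exact permutation p was 0.0208 (adjusted 0.104) for r and 0.0583 (adjusted 0.292) for rho, and for Pdk4 the exact permutation p was 0.0694 (adjusted 0.174) and 0.175 (adjusted 0.292). The exact permutation p was 0.147 (adjusted 0.245) and 0.175 (adjusted 0.292) for Myh4, 0.749 (adjusted 0.872) and 0.714 (adjusted 0.892) for Cpt1b, and 0.872 (adjusted 0.872) and 0.919 (adjusted 0.919) for Ucp2. Without the 2 libraries farthest from the median of the partner gene, r was 0.10 for both Angptl4 and Pdk4 (without replicates 1 and 4), so these relations rested on those libraries, and it was 0.91 for Myh4 (without replicates 1 and 3), -0.70 for Cpt1b and -0.57 for Ucp2 (without replicates 2 and 3).

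The named genes most like each uncoupling protein in level, by the root mean square difference of log2(CPM + 1) over the 12 libraries, were Spink1, Lta and Tex52 for Ucp1 (0.12 to 0.15), Clic1, Mon1a and Cdk6 for Ucp2 (0.20 to 0.21) and Nr1d1, Rpl18 and Ache for Ucp3 (0.41 to 0.42). Spink1 and Lta had no muscle count, and Tex52 had 1. Clic1, a chloride channel protein, had 7.59 CPM in muscle and 23.1 CPM in mitochondria. Nr1d1, a clock repressor, had 49.9 and 28.7 CPM. The uncoupling proteins were less alike among themselves, at 1.87 for Ucp2 and Ucp3, 2.41 for Ucp1 and Ucp2 and 4.17 for Ucp1 and Ucp3.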

How the data were processed

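Whole muscle and isolated mitochondria of 6 rats were compared by RNA sequencing. The authors deposited raw counts per gene. Per the submitters' processing notes, the build was mRatBN7.2 and the tools were HTSeq, STAR 2.7.11a, cutadapt 4.6 and FastQC 0.74. Not given in the sources used here are strand setting, annotation release and how multi-mapping reads were counted, which could split reads between Ucp2 and Ucp3. The labels' descriptions matched all 12 columns, and titles gave the groups. An animal number shared by both libraries pairs the replicates; deviations from group means correlated at -0.0075 to 0.0201 between them over 24679 genes.

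Genes were tested with edgeR 4.0.16 (quasi-likelihood, TMM, filterByExpr with a minimum count of 10, group only, Benjamini-Hochberg over all genes, threshold 0.05) in R 4.3.3; the SE was taken as the size of the log2 fold change over the root of its F. Positive values mean higher in mitochondria. Exact tests used SciPy 1.17.1. The fit was tested on simulated data in which few genes changed, as many up as down. The scaling was therefore not tested where most genes differ, as they do here. Alternatives were RLE factors, total counts, nuclear genes only, mitochondrial genome counts as library size, DESeq2 1.42.0, no filter, a fold of at least 2, an animal block, thinning to 573903 nuclear counts and each library left out. No set test was run.

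The genes and 10 lists (125 symbols, of which Cd36, Atp2a1, Cox8b and Myh1 had no row) were chosen with earlier results of these data known. Named were the uncoupling proteins, all related carriers, the 3 list members most abundant in muscle and the one that changed most, the 2 nearest genes on each side, the 3 most alike genes and the partners of the correlation; Elovl3 and Zic1 are outside this rule, and 1 gene within it is not reported here. Neighbours and promoters came from RefSeq tables of GRCr8, where all 3 genes matched. Intervals and floors cover counting error only.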

Additional observations from a re-analysis of the deposited data

Results flagged for a closer look

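Among groups of 6 libraries, 3 levels had an extreme library whose gap to the next was above Dixon's 95% critical value of 0.625 of the group's range. Ucp3 in whole muscle was highest in replicate 1, at 120.2 CPM. Angptl4 in whole muscle was highest in the same library, at 12.2 CPM. Ucp2 in whole muscle was lowest in replicate 2, at 5.68 CPM. Chance flags about 1 in 20 groups, and the libraries were kept in all tests.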

How the results depend on the processing

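The direction of Ucp1 and Ucp3 was the same under every alternative run, with Ucp1 removed by the filter after thinning. Leaving out single libraries moved the TMM log2 fold change between -3.36 and -2.78 for Ucp3, between -0.69 and -0.44 for Ucp2 and between 8.35 and 8.70 for Ucp1, and each still passed. The call for Ucp2 did not hold: it was -0.24 in DESeq2 (adjusted p = 0.194), -0.23 with RLE size factors (edgeR adjusted p = 0.162) and did not pass a test for a fold of at least 2 at -0.60. It was reversed to 1.49 with total counts, 1.81 with mitochondrial genome counts as library size, and 0.37 after thinning (edgeR adjusted p = 0.168). The fall of Ucp3 was smaller with total counts, at -1.12, and no longer passed with mitochondrial genome counts as library size, at -0.80. With the replicate block (animal) the values were -3.09 for Ucp3, -0.59 for Ucp2 and 8.51 for Ucp1, and 1.51 for Ucp2 with the block and total counts; the paired fit otherwise changed no call of these genes.

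Of 24679 genes, 15544 were higher and 7470 lower with TMM, and 20795 and 2228 with total counts. Of 24316 nuclear genes, 19614 were higher and 1071 lower with mitochondrial genome counts as library size. With the last, regulators went from 6 higher and 20 lower to 12 and 1, fatty acid genes from 2 and 17 to 5 and 10, heat genes from 2 and 9 to 4 and 5, immune markers from 8 and 4 to 15 and 0, endothelial markers from 0 and 10 to 0 and 1, and smooth muscle markers from 1 and 5 to 1 and 1. The correlation of Ucp3 with Angptl4 lay between 0.63 and 0.99, and with Myh4 between 0.28 and 0.92, as single libraries were left out; both passed without muscle replicate 3 (exact permutation, adjusted p = 0.0208 each). The cause of these changes was not tested. Depth limits the mitochondria side most, where the Ucp1 level rests on 8 to 29 counts per library.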

Other observations

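The Ucp3 level of an animal's mitochondria was also set beside that of its whole muscle, a comparison chosen after seeing the data. On log2(CPM + 1) over 6 animals, Pearson's r was 0.96 for Ucp3 (exact permutation p = 0.00833, adjusted over Ucp2 and Ucp3 0.0167) and Spearman's rho was 0.83 (exact permutation p = 0.0583, adjusted 0.117). For Ucp2 r was 0.35 and rho 0.31 (exact permutation p = 0.553 and 0.564). Without replicates 1 and 4, those farthest from the Ucp3 median, r was 0.59, and without replicate 1 alone it was 0.84. In CPM of nuclear counts, r for Ucp3 was 0.76 and rho 0.26 (exact permutation p = 0.146 and 0.658, adjusted 0.292 and 1.0), and r was -0.30 without replicate 1, so on that scale the relation did not pass and rested on that animal.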
